A study of Mus musculus with 6 samples.

Results

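The spindle checkpoint and the anaphase-promoting complex were examined through 10 of their regulators in mouse liver RNA. The genes were taken by symbol from the deposited expression table and linked by Ensembl identifier to the count files. They are Cdc20 and Fzr1 (activators of the complex), Ube2c (its ubiquitin-conjugating enzyme), Bub1, Bub1b, Mad2l1 and Ttk (checkpoint proteins), Plk1 (a mitotic kinase), and Pttg1 and Espl1 (securin and separase). All 10 were found among 47729 genes in the count files, and all 10 passed the filter on low counts, which left 13767 genes for testing. Bub1, Ttk and Espl1 had fewer than 10 reads in every WT library, so they passed it through the Atoh8 KD libraries alone. Ube2c had 9 reads in WT replicate 1, Bub1b 8 in WT replicate 2, and Plk1 7 and 2 in WT replicates 1 and 2. The filter asks for about 10 reads in 3 libraries, so these genes also passed only with the Atoh8 KD libraries.

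The livers of interest were labelled Atoh8 KD, a knockdown of the transcription factor gene Atoh8 that the series design calls shAtoh8 (n = 3), and were set against livers labelled WT, which the design calls shNC (n = 3). All 6 samples came from C57BL/6 mice on DDC at 0.1% of the diet for 17 days, which raises porphyrins and damages the biliary tree, so no group without injury was compared. Liver is given as the source, hepatocyte as the cell type, and the design text speaks of resting hepatocytes, but the RNA was extracted from frozen livers. Age, sex, the route of the short hairpin RNA and the cells it reached are not stated in the labels. The labels do not say whether replicates were separate animals, so p-values measure the spread between these samples only, which may be technical.

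The anaphase-promoting complex is a ubiquitin ligase that ends mitosis by marking securin and cyclin B for destruction, which frees separase to cut the cohesin that holds sister chromatids together. Until every kinetochore is attached to the spindle, the checkpoint proteins hold its activator Cdc20 in an inhibitory complex, and Fzr1 replaces Cdc20 as activator in late mitosis and the next G1 phase. Most hepatocytes of an adult liver are quiescent and hold little RNA of mitotic genes, which reappears when the liver regenerates after injury.

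The libraries held 31912058 to 37969644 reads in genes, and WT replicate 1 stood apart. The Pearson correlation of its log2 CPM, the read counts scaled to library size, over tested genes was 0.916 and 0.907 with WT replicates 2 and 3, which reached 0.984 with each other. With Atoh8 KD replicates 1 to 3 WT replicate 1 had correlations of 0.939, 0.947 and 0.922, all higher than with the other WT libraries. Mitochondrially encoded genes took 3.48% to 4.61% of reads in the Atoh8 KD libraries, against 2.43% in WT replicate 1 and 6.94% and 5.35% in the other WT libraries. Results are therefore given with and without that library. Atoh8 itself stood at 10.2, 9.83 and 5.64 CPM in Atoh8 KD replicates 1 to 3, against 63.8, 16.8 and 16.4 CPM in WT replicates 1 to 3, and it did not pass with all libraries (log2 fold change -1.92, SE 0.58, edgeR adjusted p = 0.197) but did so without WT replicate 1 (-0.95, SE 0.23, edgeR adjusted p = 0.0115). Hepatocyte markers were abundant in both groups, with Alb at 87830 CPM in Atoh8 KD and 91710 CPM in WT livers on average. Other hepatocyte markers were not all as level, and are given with the cell type markers below.

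Late cell-cycle genes are known to carry a cell cycle homology region (CHR) and CCAAT boxes near their start, which bind the MuvB-based complexes and NF-Y. The promoters of the 5 regulators that passed as higher, chosen with their values known, are shown for that reason, from the RefSeq annotation of GRCm38.p6, as the 250 bases before the annotated start and on the strand of the gene. Capitals mark CCAAT and the CHR letters, searched as TTTGAA and its variants TTTAAA and also TTCGAA on both strands, so that ATTGG and TTCAAA are the same motifs on the other strand. The Cdc20 window is chr4:118437344-118437593 on the minus strand, Ube2c is chr2:164769679-164769928 on the plus strand, Bub1b is chr2:118597961-118598210 on the plus strand, Plk1 is chr7:122159185-122159434 on the plus strand and Ttk is chr9:83834439-83834688 on the plus strand.
Cdc20: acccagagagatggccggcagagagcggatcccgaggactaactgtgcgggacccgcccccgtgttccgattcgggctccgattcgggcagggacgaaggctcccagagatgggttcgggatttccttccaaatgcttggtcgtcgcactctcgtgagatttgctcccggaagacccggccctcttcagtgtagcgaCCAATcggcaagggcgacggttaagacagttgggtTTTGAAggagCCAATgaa
Ube2c: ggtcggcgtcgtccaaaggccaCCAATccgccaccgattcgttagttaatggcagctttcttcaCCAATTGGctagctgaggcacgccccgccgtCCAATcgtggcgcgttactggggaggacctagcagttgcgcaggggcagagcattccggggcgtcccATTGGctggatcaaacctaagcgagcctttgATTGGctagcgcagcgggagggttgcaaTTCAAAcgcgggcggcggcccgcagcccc
Bub1b: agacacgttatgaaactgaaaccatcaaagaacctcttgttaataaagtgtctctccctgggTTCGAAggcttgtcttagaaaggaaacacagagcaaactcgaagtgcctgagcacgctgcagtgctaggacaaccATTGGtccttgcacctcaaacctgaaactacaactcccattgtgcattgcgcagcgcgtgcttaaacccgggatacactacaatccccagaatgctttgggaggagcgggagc
Plk1: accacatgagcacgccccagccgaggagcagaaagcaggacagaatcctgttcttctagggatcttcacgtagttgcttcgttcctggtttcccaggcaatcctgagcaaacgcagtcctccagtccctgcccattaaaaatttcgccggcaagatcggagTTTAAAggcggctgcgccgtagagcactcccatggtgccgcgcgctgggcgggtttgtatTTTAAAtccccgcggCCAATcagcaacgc
Ttk: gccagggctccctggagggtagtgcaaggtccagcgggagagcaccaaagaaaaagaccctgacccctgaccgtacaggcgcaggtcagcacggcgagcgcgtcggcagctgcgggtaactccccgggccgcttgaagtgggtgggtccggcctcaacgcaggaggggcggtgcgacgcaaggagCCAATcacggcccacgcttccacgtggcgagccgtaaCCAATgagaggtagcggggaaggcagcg

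In Cdc20 the TTTGAA at positions -18 to -13 from the start lay between CCAAT boxes that began at -53 and -8. Ube2c had 6 CCAAT boxes, of which 1 pair overlapped in the run CCAATTGG, and a CHR at -29 to -24. The Ttk window shown held 2 CCAAT boxes, with its CHR in the first bases of the gene, at 8 to 13. Bub1b had 1 CCAAT box at -113 and a CHR at -188 to -183, and another CHR past its start, at 41 to 46. Over windows of 300 bases, which add 50 bases past the start, CCAAT was found in 8 of the 10 regulators and in 37.4% of 32851 RefSeq promoters. A CHR was found in 7 of 10 and in 28.8% of promoters, and the 2 motifs began within 50 bases of each other in 5 of 10 (Cdc20, Ube2c, Plk1, Ttk and Espl1) and in 5.1% of promoters. In the lists nearest to the regulators a CHR and such a close pair were about as frequent. Among the checkpoint partners 76.9% of 13 windows held a CHR and 38.5% a close pair, and among the substrates 75.0% and 43.8% of 16 windows did. CCAAT was less frequent there, in 38.5% of checkpoint partner and 62.5% of substrate windows, against 80.0% for the regulators. Bub1 and Bub1b held both motifs farther apart. Fzr1 held CCAAT alone, and Mad2l1 and Pttg1 held neither. By the GENCODE M21 annotation the RefSeq starts of Fzr1 and Pttg1 lie 146 and 270 bases inside the gene, and that of Mad2l1 169 bases before it, so that its window ends short of the GENCODE start. Other starts were not searched. The core subunits of the complex held a CHR in 2 of 16 windows from 13 genes, and none held both motifs. A match describes these letters and is not evidence of binding.

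Of the 10 regulators, 5 passed as higher in Atoh8 KD livers and 0 as lower, by the edgeR quasi-likelihood test with Benjamini-Hochberg adjustment over all genes at 0.05. These were Cdc20, Ube2c, Ttk, Bub1b and Plk1. Over all genes tested 0.741% passed as higher and 0.123% as lower. Ube2c, Ttk, Bub1b and Plk1 reached the test only with the Atoh8 KD libraries, where they were high. The regulators were also chosen with earlier results of these data known, so their share is no independent support for the set. For 8 regulators every Atoh8 KD library lay above every WT library in CPM, as did 13.0% of all genes tested, and the exceptions were Fzr1 and Pttg1. The median log2 fold change was 4.05 over the regulators and -0.05 over all genes tested. In bulk RNA, more cells with these transcripts and more transcript per cell cannot be told apart.

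**Figure D1:**
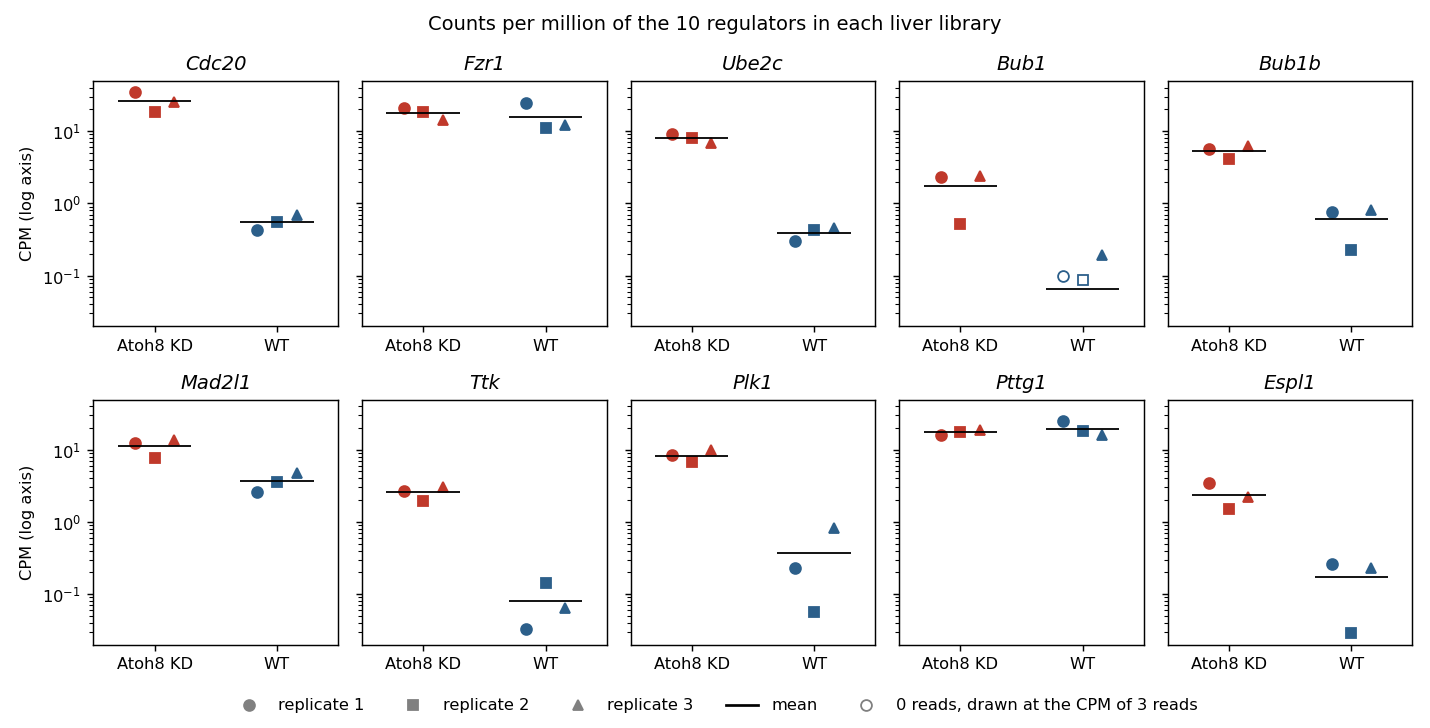
CPM on a log axis for each regulator in the 3 Atoh8 KD and 3 WT libraries, with 1 symbol per replicate and a line at the group mean, which counts a library without reads as 0; open symbols had 0 reads and are drawn at the CPM of 3 reads. Cdc20 averaged 26.2 CPM in Atoh8 KD and 0.552 CPM in WT livers, while the groups overlapped for Fzr1 and Pttg1.

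Cdc20, the mitotic activator, had the largest fold change of the 10 with all libraries by edgeR, and Fzr1, the activator of late mitosis and G1, had none that passed. Cdc20 (ENSMUSG00000006398, GRCm38 chromosome 4, 118432901 to 118437352, minus strand) stood at 34.6, 18.6 and 25.4 CPM in Atoh8 KD replicates 1 to 3, against 0.430, 0.545 and 0.682 CPM in WT replicates 1 to 3. The lowest Atoh8 KD library was far above the highest WT library, and WT replicate 1 lay with the other WT libraries. The log2 fold change was 5.56 (SE 0.36, 95% interval 4.72 to 6.40, edgeR adjusted p = 0.00958). The order at the top was not stable, since Ttk was larger without WT replicate 2 (5.604 against 5.54 for Cdc20), and Plk1 without WT replicate 3 (5.84 against 5.73) and in limma-voom (5.57 against 5.52). Cdc20 overlaps Elovl1 on the other strand, which had 2819, 2273 and 3028 reads in Atoh8 KD libraries, against 2751, 1828 and 1541 reads in WT libraries. Without strand information reads of the shared stretch cannot be told apart. A copy of Cdc20 with 93.7% identity over 1512 bases, Gm7856, had 0 reads in every library. Fzr1 (ENSMUSG00000020235, chromosome 10, 81366222 to 81378516, minus strand) stood at 20.6, 18.4 and 14.1 CPM in Atoh8 KD libraries, against 24.4, 11.01 and 12.2 CPM in WT libraries. WT replicate 1 was the highest of the 6, and so it was among WT libraries for Mfsd12 on the other strand, with 397, 323 and 332 reads in Atoh8 KD libraries, against 377, 190 and 171 reads in WT libraries. For Fzr1 the log2 fold change was 0.16 (SE 0.35, 95% interval -0.65 to 0.97, edgeR adjusted p = 0.870). Without WT replicate 1 it was 0.62 (SE 0.18, edgeR adjusted p = 0.0246), and without WT replicate 2 or 3 it was -0.05 and -0.0017, so the direction for Fzr1 depended on the WT libraries kept.

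Ube2c, the enzyme that hands the first ubiquitin to substrates of the complex, rose with Cdc20. It stood at 9.09, 7.94 and 6.92 CPM in Atoh8 KD libraries, against 0.298, 0.430 and 0.455 CPM in WT libraries (ENSMUSG00000001403, chromosome 2, 164769898 to 164778822, plus strand). Both groups were tight, with SDs of 1.08 and 0.0843 CPM. On the log2 scale it rose by 4.33 (SE 0.31, edgeR adjusted p = 0.00985). A copy of Ube2c, Gm8956, had 0 reads in every library. Another, AC151284.1, 93.6% identical over 466 bases, was not among the counted genes.

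Among the checkpoint kinases, Ttk and Bub1b passed and Bub1 did not. Ttk, the kinase known as MPS1 that starts checkpoint signalling at kinetochores, had 111, 75 and 130 reads in Atoh8 KD libraries, against 1, 5 and 2 reads in WT libraries (ENSMUSG00000038379, chromosome 9, 83834689 to 83872389, plus strand). That gave 2.69, 1.96 and 3.03 CPM in Atoh8 KD livers, against 0.0331, 0.143 and 0.0650 CPM in WT livers. The WT level is close to the counting limit, where 3 reads are 0.0860 to 0.0994 CPM. Ttk had a log2 fold change of 4.90 (SE 0.55, edgeR adjusted p = 0.0222), and the ratio of summed reads was 30.9 with an exact 95% interval of 15.5 to 72.3 that covers counting error only. Bub1b, the BubR1 protein that binds Cdc20 within the mitotic checkpoint complex, stood at 5.65, 4.13 and 6.22 CPM in Atoh8 KD libraries, against 0.762, 0.229 and 0.812 CPM in WT libraries (ENSMUSG00000040084, chromosome 2, 118598211 to 118641591, plus strand). The groups were apart in every library, and WT replicate 2 was the lowest. Its log2 fold change was 3.15 (SE 0.49, edgeR adjusted p = 0.0412).

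Bub1, which brings Bub1b and Mad1 to kinetochores, varied most among the Atoh8 KD libraries. It had 95, 20 and 104 reads in Atoh8 KD replicates 1 to 3, against 0, 0 and 6 reads in WT replicates 1 to 3 (ENSMUSG00000027379, chromosome 2, 127801122 to 127831865, minus strand). Atoh8 KD replicate 2 stood at 0.523 CPM and the other Atoh8 KD libraries at 2.30 and 2.42 CPM, against 0.195 CPM in WT replicate 3. The log2 fold change was 4.72 with a wide error (SE 1.17, edgeR adjusted p = 0.138), and the ratio of summed reads was 28.6 with an exact 95% counting interval of 12.9 to 78.7. Without WT replicate 1 the fold change was 4.21 (SE 1.00, edgeR adjusted p = 0.0102).

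Mad2l1, whose product Mad2 binds Cdc20 directly, had a smaller difference than the checkpoint kinases on a higher WT level. It stood at 12.3, 7.71 and 13.5 CPM in Atoh8 KD libraries, against 2.58, 3.61 and 4.81 CPM in WT libraries (ENSMUSG00000029910, chromosome 6, 66535390 to 66547220, plus strand). The groups did not overlap, with Atoh8 KD replicate 2 nearest to the WT range. The log2 fold change was 1.60 (SE 0.33, 95% interval 0.82 to 2.39), short of the threshold with all libraries (edgeR adjusted p = 0.0846) and past it without WT replicate 1 (1.43, SE 0.27, edgeR adjusted p = 0.00386). A similar transcript, Gm42430, had 0 reads in every library, and another, AC139157.1, was not among the counted genes.

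Plk1, the kinase that drives mitotic entry and helps switch the complex on, stood at 8.41, 6.72 and 9.72 CPM in Atoh8 KD libraries, against 0.232, 0.0573 and 0.812 CPM in WT libraries (ENSMUSG00000030867, chromosome 7, 122159439 to 122169873, plus strand). The WT values spread over 2, 7 and 25 reads. The log2 fold change was 4.50 (SE 0.74, edgeR adjusted p = 0.0484), and with median ratio size factors in place of TMM it fell short (4.49, edgeR adjusted p = 0.0528). The pseudogene Plk-ps1, 93.5% identical over 1813 bases, had 12, 18 and 14 reads in Atoh8 KD libraries, against 16, 23 and 4 reads in WT libraries. In WT livers Plk1 is therefore less certain, because the pseudogene had more reads than Plk1 in WT replicates 1 and 2.

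Separase and securin parted. Espl1, the protease that cleaves cohesin, had 141, 57 and 95 reads in Atoh8 KD libraries, against 8, 1 and 7 reads in WT libraries (ENSMUSG00000058290, chromosome 15, 102296266 to 102324357, plus strand). The groups did not overlap at 3.42, 1.49 and 2.21 CPM in Atoh8 KD livers, against 0.265, 0.0287 and 0.227 CPM in WT livers. Its log2 fold change was 3.77 (SE 0.70, edgeR adjusted p = 0.0641), and 4.25 without WT replicate 1 (SE 0.69, edgeR adjusted p = 0.00169). Pttg1, the securin that holds separase inactive, stood at 15.7, 17.4 and 18.8 CPM in Atoh8 KD libraries, against 24.6, 18.1 and 15.8 CPM in WT libraries (ENSMUSG00000020415, chromosome 11, 43420250 to 43426251, minus strand). The groups overlapped, and WT replicate 1 was again the highest. The log2 fold change was -0.17 with a 95% interval of -0.71 to 0.37 (SE 0.23, edgeR adjusted p = 0.783), and it was 0.05 without WT replicate 1.

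**Figure D2:**
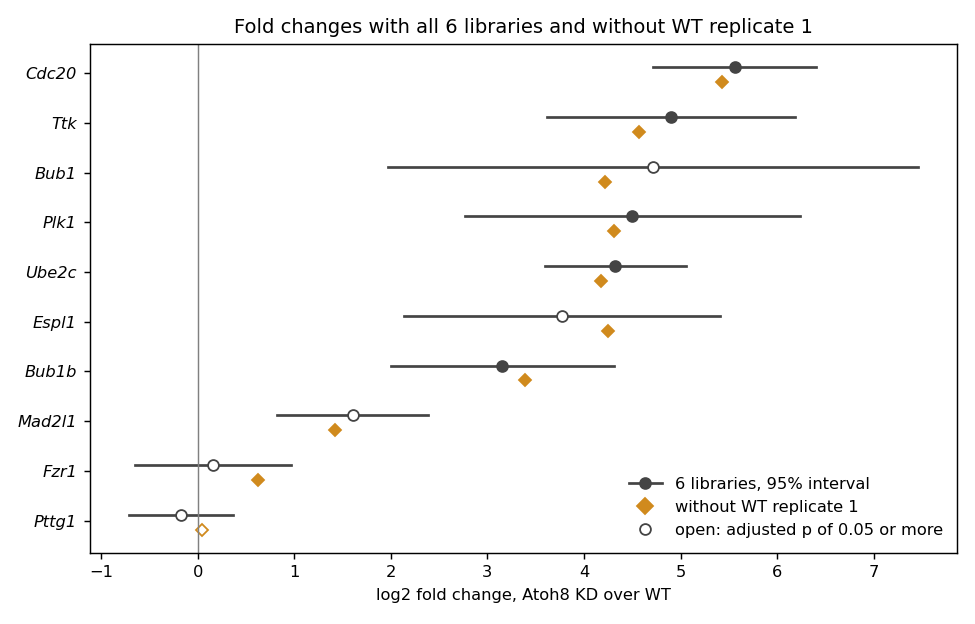
Log2 fold change of Atoh8 KD over WT for each regulator with all 6 libraries (circles, with 95% intervals) and without WT replicate 1 (diamonds); filled symbols passed at an adjusted p under 0.05. The values run between -0.17 for Pttg1 and 5.56 for Cdc20 with all libraries, and Pttg1 was the one regulator that did not pass without WT replicate 1.

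The calls depended on the libraries kept. Without WT replicate 1, 9 of 10 regulators passed as higher and 0 as lower by edgeR, where 16.5% of 14222 genes tested passed as higher and 16.1% as lower. Without Atoh8 KD replicate 1, Atoh8 KD replicate 3 or WT replicate 2 no regulator passed by edgeR, as no gene did. In each of these fits 8 of 10 regulators had an unadjusted p under 0.05, against 8.02%, 8.71% and 11.6% of all genes tested in the same fits. Without Atoh8 KD replicate 2 the regulators that passed were Cdc20 and Ube2c, where 10 of 14139 genes tested passed as higher. Without WT replicate 3 they were Cdc20, Ube2c and Plk1, where 20 of 14142 genes tested passed as higher. The adjusted p of Cdc20 over these 6 fits ran between 3.73e-05 and 0.108, and its log2 fold change between 5.36 and 5.80.

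Compared by the authors' FPKM values, which scale for transcript length and depth, the order of the regulators differed between the groups. In Atoh8 KD livers Pttg1 led at 33.9 ± 2.73 FPKM, followed by Cdc20 at 14.9 ± 4.53, Ube2c at 10.1 ± 1.36, Fzr1 at 6.97 ± 0.755, Mad2l1 at 6.75 ± 1.83 and Plk1 at 4.76 ± 1.17 FPKM (SD, n = 3). Bub1b, Ttk, Bub1 and Espl1 followed at 1.64, 1.04, 0.534 and 0.373 FPKM. The ranges of Cdc20 and Ube2c overlapped, as did those of Fzr1 and Mad2l1, of Mad2l1 and Plk1, and of Bub1 and Espl1. In WT livers Pttg1 led at 40.6 ± 12.2 FPKM, ahead of Fzr1 at 5.92 ± 2.72 and Mad2l1 at 2.195 ± 0.359 FPKM (SD, n = 3). The other 7 regulators averaged 0.0354 to 0.492 FPKM in WT livers, and ranges of neighbours in that order overlapped. Pttg1 made up 36.3% to 47.0% of the summed FPKM of the 10 genes in Atoh8 KD libraries and 76.6% to 82.3% in WT libraries.

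Ratios between partners were taken from the same FPKM values. The ratio of Cdc20 to Fzr1 in FPKM was 2.49, 1.497 and 2.38 in Atoh8 KD replicates 1 to 3, against 0.0332, 0.0908 and 0.0875 in WT replicates 1 to 3. Cdc20 was thus the more abundant activator transcript in each Atoh8 KD library and Fzr1 in each WT library. Cdc20 to Mad2l1 was 2.54, 2.21 and 1.86 in Atoh8 KD libraries, against 0.168, 0.164 and 0.159 in WT libraries. Bub1b to Cdc20 was 0.0800, 0.120 and 0.144 in Atoh8 KD libraries, against 0.817, 0.876 and 0.728 in WT libraries. The closeness of these WT ratios is uncertain, since Bub1b in WT replicate 2 had 8 reads. There 1 CPM corresponded to 1.45 FPKM, against 0.274 to 0.354 FPKM in the other libraries. The mean log2 difference in Bub1b to Cdc20 was -2.85 with FPKM and -2.21 with CPM. Cdc20 to Fzr1, Cdc20 to Mad2l1 and Bub1b to Cdc20 each parted the groups in every library. For each the exact two-sided permutation p was 0.1, which is the smallest that 3 against 3 can give. Pttg1 to Espl1 was 62.5, 132 and 102 in Atoh8 KD libraries, against 1349 and 519 in WT replicates 1 and 3, while WT replicate 2 had 1 read of Espl1 and was left out.

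**Figure D3:**
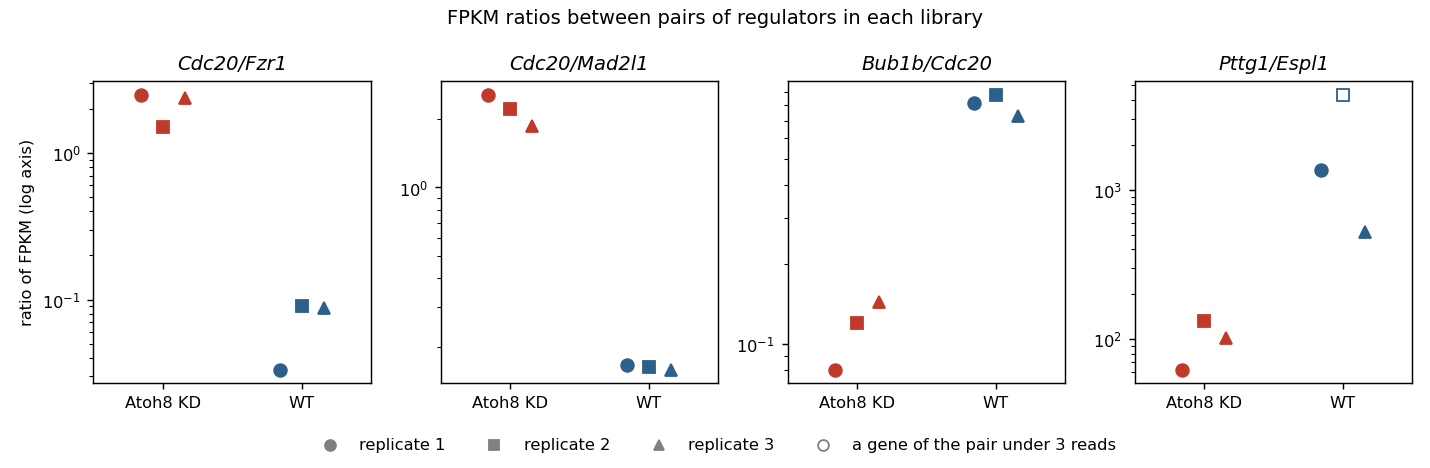
Ratio of the FPKM values of 4 pairs of regulators on log axes, per library, with Atoh8 KD at the left of each panel and WT at the right; the open symbol marks the library with under 3 reads of Espl1. Cdc20 to Fzr1 lies between 1.497 and 2.49 in Atoh8 KD libraries and between 0.0332 and 0.0908 in WT libraries.

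Counts and FPKM went apart for the scarcest transcripts. Bub1 in WT replicate 3 had 6 reads and 0.333 FPKM, while in Atoh8 KD replicate 2 it had 20 reads and 0.199 FPKM, so that the groups overlapped in FPKM and not in CPM. Bub1b in WT replicate 2 had 8 reads and 0.332 FPKM, against 23 reads and 0.246 FPKM in WT replicate 1. One CPM of Bub1b corresponded to 1.45 FPKM in WT replicate 2 and to 0.274 to 0.354 FPKM in the other libraries. For Fzr1 the same quotient ran between 0.370 and 0.443 FPKM per CPM over all libraries. The WT levels of Bub1, Bub1b and Ttk in FPKM are less certain for this reason, and the cause was not tested.

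Of 14 checkpoint partners 2 passed as higher, as did 9 of 18 substrates of the complex and 0 of its 14 core subunits. Over all genes tested 0.741% passed as higher. The lists too were chosen with earlier results of these data known, so these counts are no independent support. The checkpoint partners had a median log2 fold change of 1.86, and 0 passed as lower. Birc5, the survivin subunit of the chromosomal passenger complex, stood at 7.42, 4.39 and 8.39 CPM in Atoh8 KD libraries, against 0.596, 0.545 and 0.650 CPM in WT libraries. Aurkb, the kinase of that complex, stood at 3.56, 1.91 and 3.19 CPM in Atoh8 KD libraries, against 0.265, 0.229 and 0.0325 CPM in WT libraries. In log2 units Birc5 was higher by 3.49 (SE 0.35, edgeR adjusted p = 0.0182), Aurkb by 4.01 (SE 0.64, edgeR adjusted p = 0.0428). Aurkb had fewer than 10 reads in every WT library and passed the low-count filter through the Atoh8 KD libraries alone. Bub3 and Mad1l1, the constant partners of Bub1 and Mad2, lay at -0.03 and -0.06 on the log2 scale. With WT replicate 1 left out, 8 of the 14 passed as higher, and Zw10 passed as lower (log2 fold change -0.49, edgeR adjusted p = 0.0348). In that fit 16.5% of all genes tested passed as higher and 16.1% as lower.

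For the 18 substrates the median was 2.96 on the log2 scale, and 0 passed as lower. Ccnb1, the cyclin B1 whose destruction ends mitosis, stood at 16.8, 12.1 and 21.2 CPM in Atoh8 KD libraries, against 0.629, 0.344 and 0.780 CPM in WT libraries (log2 fold change 4.84, SE 0.40, edgeR adjusted p = 0.00985). Kif22, a chromosome-arm kinesin, and Tpx2, the spindle factor that activates Aurora A, were also higher, at 4.43 and 4.41 on the log2 scale (SE 0.51 for both), each with an edgeR adjusted p of 0.0239. Kif22 had 3 reads in WT replicate 1 and passed the low-count filter only with the Atoh8 KD libraries. Anln, the cytokinetic scaffold anillin, rose by 2.99 (SE 0.41, edgeR adjusted p = 0.0322). The other 9 substrates did not pass, and their log2 fold changes lay between -0.20 for Tk1, the thymidine kinase, and 4.61 for Hmmr, a spindle protein. Leaving out WT replicate 1, 15 of the 18 passed as higher and 0 as lower, beside 16.5% and 16.1% of all genes tested.

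Of 14 core subunits of the anaphase-promoting complex, 0 passed in either direction by edgeR, 1 had an unadjusted p under 0.05, as had 14.5% of all genes tested, and DESeq2 called 0 as higher. Their median log2 fold change was -0.0029, with 7 above and 7 below 0. Cdc23, the subunit with the smallest p, stood at 15.9, 15.3 and 16.3 CPM in Atoh8 KD libraries, against 12.4, 10.7 and 10.9 CPM in WT libraries (log2 fold change 0.49, SE 0.19, edgeR adjusted p = 0.298). Anapc2, the cullin subunit, had a log2 fold change of 0.48 (SE 0.23, edgeR adjusted p = 0.413). Cdc23 was the subunit with every Atoh8 KD library above every WT library, and Anapc15, at a log2 fold change of -0.35, the one with every Atoh8 KD library below, as were 1792 and 1382 of 13767 genes tested. Without WT replicate 1, 3 subunits passed as higher (Anapc2, Anapc7 and Cdc23) and Cdc27 as lower, at log2 fold changes of 0.75, 0.71, 0.57 and -0.81. These counts of 3 and 1 in 14 are near or below the 16.5% and 16.1% of all genes that passed in each direction in that fit.

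**Figure D4:**
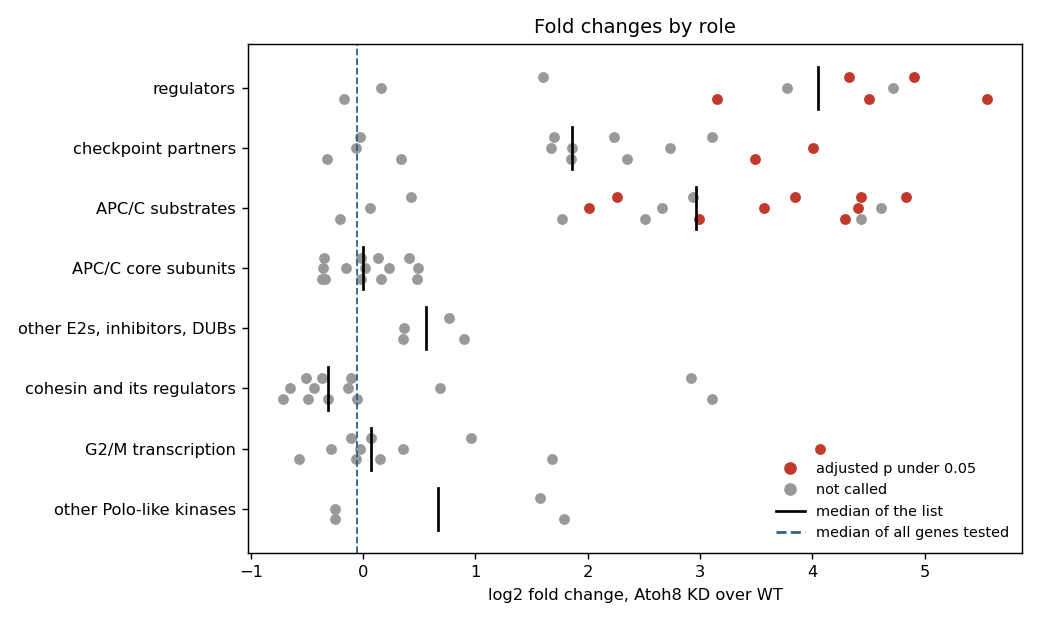
Log2 fold change of Atoh8 KD over WT for each tested gene, grouped by role, with red points for genes past an adjusted p of 0.05, a black bar at the median of each list and a dashed line at the median of all genes tested. The regulators and substrates have medians of 4.05 and 2.96, while the 14 core subunits lie within -0.37 to 0.49.

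Of 6 further enzymes and inhibitors of the complex, 4 had enough reads for the test. By edgeR 0 passed and 1 had an unadjusted p under 0.05, as had 14.5% of all genes tested, and DESeq2 called 0 as higher. Ube2s, which extends ubiquitin chains on substrates, and Ube2d1, another ubiquitin-conjugating enzyme, lay at 0.36 (SE 0.20, edgeR adjusted p = 0.485) and 0.77 (SE 0.28, edgeR adjusted p = 0.273) on the log2 scale. Ube2s stood at 21.5, 20.7 and 17.99 CPM in Atoh8 KD libraries, against 16.4, 13.1 and 17.4 CPM in WT libraries, a narrower gap than that of Ube2c, although that contrast was not tested. Of 13 cohesin genes and cohesin regulators 0 passed by edgeR with all libraries, with 3 at an unadjusted p under 0.05, where 14.5% of all genes tested were. DESeq2 called 2 of the 13 as higher, beside 590 of 22961 genes. Esco2, the acetyltransferase that locks cohesin in S phase, and Sgol2a, a shugoshin that shields centromeric cohesin, lay at 3.10 (SE 0.53, edgeR adjusted p = 0.0519) and 2.92 (SE 0.57, edgeR adjusted p = 0.0744) on the log2 scale. The loader gene Nipbl stood at 21.1, 26.0 and 24.2 CPM in Atoh8 KD libraries, against 5.76, 52.3 and 58.6 CPM in WT replicates 1 to 3, so that WT replicate 1 lay below the knockdown libraries and the other WT libraries above them. Nipbl was singled out after its values were seen. When WT replicate 1 was left out, 3 cohesin genes passed as higher and 9 as lower, beside 16.5% and 16.1% of all genes tested.

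Among 11 genes of G2/M transcription, Foxm1 alone passed by edgeR with all libraries, where 0.741% of all genes tested passed as higher. By limma-voom with quality weights 2 of the 11 were called higher, near the share of 2576 in 13767 genes tested. Foxm1 had 8 reads in WT replicate 1 and passed the low-count filter only with the Atoh8 KD libraries. This forkhead factor, which binds at CHR promoters with the MuvB core, stood at 7.42, 4.42 and 6.81 CPM in Atoh8 KD libraries, against 0.265, 0.287 and 0.552 CPM in WT libraries (log2 fold change 4.07, SE 0.42, edgeR adjusted p = 0.0187). Mybl2, the B-Myb partner of that core, had 14, 23 and 23 reads in Atoh8 KD libraries, against 16, 42 and 14 reads in WT libraries, with a log2 fold change of -0.57 (SE 0.53, edgeR adjusted p = 0.679). Of the 4 other Polo-like kinases 0 passed by edgeR, while DESeq2 called 1 as higher, beside 590 of 22961 genes. Against 14.5% of all genes tested, 2 of these kinases had an unadjusted edgeR p under 0.05. These were Plk2, a stress-responsive kinase, at a log2 fold change of 1.57 (SE 0.35, edgeR adjusted p = 0.0997), and Plk4, the kinase of centriole duplication (1.79, SE 0.61, edgeR adjusted p = 0.242).

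The 5 genes whose log2 CPM over the 6 libraries was most like the mean standardised profile of the regulators were Exoc3l4, Kifc5b, Slc5a9, Cenpa and Slpi, among genes of at least 1 CPM on average. Their Pearson r ran between 0.999 and 0.993 over 6 libraries that fall into 2 groups and share the gap between them. All 5 had every Atoh8 KD library above every WT library, as had 13.0% of all genes tested. This follows from choosing them by that profile and is no separate result. Slc5a9 had fewer than 10 reads in every WT library, and Exoc3l4 and Kifc5b in at least 1. They therefore passed the low-count filter only with the Atoh8 KD libraries. Cenpa, the histone variant that marks centromeres, stood at 14.1, 9.17 and 15.9 CPM in Atoh8 KD libraries, against 3.08, 1.89 and 2.27 CPM in WT libraries. Slpi, a secreted protease inhibitor, stood at 28.0, 23.8 and 26.6 CPM in Atoh8 KD libraries, against 12.6, 10.2 and 10.6 CPM in WT libraries.

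Markers of other liver cells also differed between the libraries. The summed CPM of 8 stellate cell markers ran between 233.6 and 323 in Atoh8 KD libraries, against 95.5 to 159 in WT libraries, and Acta2, the smooth muscle actin gene, was the 1 of the 8 that passed, with 52, 36 and 47 reads in Atoh8 KD libraries, against 1, 1 and 0 reads in WT libraries (edgeR adjusted p = 0.0282). Acta2 passed the low-count filter through the Atoh8 KD libraries alone. In the fit with all libraries 0.741% of all genes tested passed as higher, and 14.5% had an unadjusted p under 0.05. For 10 macrophage markers the sum ran between 267 and 309 CPM in Atoh8 KD libraries, against 353 CPM in WT replicate 1 and 174 and 155 CPM in the other WT libraries, and 0 passed by edgeR, with 3 at an unadjusted p under 0.05. Without WT replicate 1, 6 of 8 stellate and 7 of 10 macrophage markers passed as higher, beside 16.5% of all genes tested. For 8 cholangiocyte markers the sum was 20.4 to 29.0 CPM in Atoh8 KD libraries, against 11.6 to 14.8 CPM in WT libraries, and Prom1 was the 1 of 3 tested members that passed. Without Prom1, left out after its values were seen, the cholangiocyte sums overlapped, at 14.8, 9.75 and 11.6 CPM in Atoh8 KD libraries, against 8.94, 13.4 and 10.9 CPM in WT libraries. The bile duct keratin Krt19 had 3 reads in each Atoh8 KD library, against 5, 0 and 1 reads in WT libraries. Lymphocyte and neutrophil markers stayed below 1 CPM in sum in every library, with Ly6g at 0 reads throughout, and endothelial sums overlapped at 127 to 181 CPM in Atoh8 KD and 138 to 162 CPM in WT libraries. Sums of 10 hepatocyte markers were 107600 to 122500 CPM in Atoh8 KD and 115100 to 142700 CPM in WT libraries. The 8 erythroid markers summed to 20.1 to 23.5 CPM in Atoh8 KD and 18.3 to 32.9 CPM in WT libraries. The stellate sum thus parted the groups, as did the cholangiocyte sum with Prom1 kept and 8 of the regulators. Not every stellate marker did. Of the 8 stellate markers 5 had every Atoh8 KD library above every WT library, as did 13.0% of all genes tested, while Des, Lrat and Pdgfrb overlapped. Lrat stood at 8.82, 7.68 and 16.6 CPM in Atoh8 KD libraries, against 4.21, 14.5 and 10.7 CPM in WT libraries. The part of other cell types in the levels of the regulators was not tested.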

How the data were processed

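The authors deposited raw read counts per gene for each of the 6 libraries and 1 table of FPKM values. Per the submitters' processing notes, the tools were FastQC, Trim Galore, HISAT2 (2.10), HTSeq and Cufflinks (2.2.1) on GRCm38 (mm10), whose roles are not stated. Strand use in counting is likewise not given in these sources. The 5 closing lines that name no gene were left out, at 2.48% to 5.66% of reads outside genes and 4.69% to 6.87% ambiguous reads per library. Counts were filtered with filterByExpr (minimum count 10), scaled by TMM, and compared by the quasi-likelihood test of edgeR 4.0.16 on group alone (R 4.3.3), with Benjamini-Hochberg adjustment over all genes at 0.05. The fitting script was run on simulated counts. SE is the log2 fold change over the square root of F, and log2 CPM uses a prior count of 2. Coordinates are from GENCODE M21, in which 47224 of 47729 identifiers were found, and promoters from RefSeq. Alternatives used DESeq2 1.42.0 and limma 3.58.1, FPKM among them, with log2(FPKM + 1) and log2(FPKM + 0.1) for genes of at least 0.5 FPKM in 3 libraries. Similar transcripts were sought with BLAST at 90% identity over 300 bases. Named genes were the 10 regulators, Atoh8, for each list the lowest p-values (at most 4 genes among those that passed, else 2) and the 5 closest profiles; Bub3, Mad1l1, Zw10, Anapc7, Anapc15, Cdc27, Mybl2, Nipbl, Tk1, Hmmr and the markers were named after their values were seen. The regulators and lists were chosen with earlier results of these data known. No replicate pair agreed within sampling noise, the lowest chi-square per gene being 50.2 over genes with a minimum of 20 reads.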

Additional observations from a re-analysis of the deposited data

How the results depend on the processing

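Same-numbered libraries deviated together for replicates 1 and 3 (r = 0.254 and 0.290) and not for replicate 2 (r = -0.08), so the numbers were not taken to pair the samples, and not every library correlated best with its own number. With the replicate block, edgeR called 35 genes, 33 higher and 2 lower, of which 2 were regulators, 1 a checkpoint partner and 4 substrates, and Bub1b, Ttk and Plk1 fell short (log2 fold changes 3.27, 4.92 and 4.85). Median ratio size factors ended the call of Plk1 (4.49). Without a filter 247 genes passed (213 higher, 34 lower), among them 1 cohesin gene, 1 Polo-like kinase and Espl1 (3.83). DESeq2 called 811 genes (590 higher, 221 lower), with 8 regulators, 7 checkpoint partners, 14 substrates, 2 cohesin genes and 1 Polo-like kinase higher; it added Bub1 (4.76), Mad2l1 (1.59), Espl1 (3.79) and Atoh8 (-1.92). limma-voom with quality weights called 5088 genes (2576 higher, 2512 lower), with 9 regulators, 8 checkpoint partners, 3 core subunits, 2 other enzymes and inhibitors, 15 substrates, 3 cohesin genes, 2 genes of G2/M transcription and 2 Polo-like kinases higher; it added Fzr1 (0.66), Bub1 (5.42), Mad2l1 (1.4998), Espl1 (4.92) and Atoh8 (-0.97). On log2(FPKM + 1) 27 genes were lower, and on log2(FPKM + 0.1) 3 regulators passed, without Bub1b (2.14) and Ttk (2.53). Bub1 and Espl1 did not reach the FPKM filter, nor Bub1 the filter of 1 CPM in 3 libraries, so these gave no value.

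With each library left out in turn, 0 to 4632 genes passed (0 to 2348 higher, 0 to 2284 lower), with 0 to 9 regulators, 0 to 8 checkpoint partners, 0 to 3 core subunits, 0 to 1 other enzymes and inhibitors, 0 to 15 substrates, 0 to 3 cohesin genes, 0 to 2 genes of G2/M transcription and 0 to 2 Polo-like kinases higher. The log2 fold changes ran over 5.36 to 5.80 for Cdc20, -0.05 to 0.62 for Fzr1, 4.18 to 4.45 for Ube2c, 4.11 to 9.04 for Bub1, 2.75 to 3.43 for Bub1b, 1.43 to 1.86 for Mad2l1, 4.57 to 5.604 for Ttk, 3.97 to 5.84 for Plk1, -0.30 to 0.05 for Pttg1, 3.25 to 4.25 for Espl1 and -2.24 to -0.95 for Atoh8. The 9.04 for Bub1, without WT replicate 3, was fitted against 2 WT libraries at 0 reads and is no estimate of size. Set against an assumed floor of 3 reads per library, the Atoh8 KD mean of Bub1 was 18.9-fold higher. That figure leaves out WT replicate 3, which had 6 reads, and is no lower bound over all libraries. Fzr1 reversed without WT replicate 2 (-0.0498) or 3 (-0.0017), and Pttg1 without WT replicate 1 (0.0465). The group difference in mean log2 ratio of Cdc20 to Fzr1, Cdc20 to Mad2l1, Bub1b to Cdc20 and Pttg1 to Espl1 kept its direction with CPM. It also did so with each library left out, which could not have changed it. In FPKM every Atoh8 KD library used lay on the same side of every WT library used. Transcripts with under 10 reads per WT library (Bub1, Ttk and Espl1) are limited by depth. The causes of these changes were not tested.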
